A study of Mus musculus with 4 samples.

Results

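The 9 genes described here encode classical adipokines, proteins that adipose tissue releases into blood or into its own surroundings. They were chosen by name, as Lep, Adipoq, Retn, Nampt, Apln, Rarres2, Serpina12, Angptl8 and Lcn2. Each name was found on 1 of the 55387 gene rows given for each library, so all 9 could be followed. Messenger RNA was sequenced from brown adipose tissue (BAT) of 4 male mice aged 15 weeks on a C57BL/6 background, and 1 library was made per mouse. The mice were housed at 22 to 24 °C. In 2 Sox4-MKO mice the transcription factor gene Sox4 was deleted with Myf5-Cre, which acts in the precursors that brown adipocytes share with skeletal muscle and so not in brown fat alone. The other 2 mice were littermate controls that carried the floxed Sox4 allele, called Sox4f/f here, which the labels give as WT. The labels name brown fat adipocytes as the cell type, but the tissue was taken whole.

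Adipokines link fat to the rest of the body. Leptin reports the size of fat stores to the brain, adiponectin acts on liver and muscle to improve the response to insulin, and resistin, made by adipocytes in mice, opposes it. White fat makes most leptin and resistin, and brown fat is better known for heat production through the uncoupling protein UCP1, so the 2 tissues are often told apart by these genes. Some other members are also known for acting close to where they are made. Chemerin (Rarres2) attracts immune cells, apelin (Apln) acts on vessels, and NAMPT (also called visfatin) is the enzyme that limits the recycling of nicotinamide into NAD.

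The libraries differed in more than genotype. Sox4 itself was not lower in the libraries labelled Sox4-MKO: it measured 1.98 and 1.06 FPKM (fragments corrected for transcript length and for sequencing depth) in the Sox4f/f mice and 0.981 and 3.06 FPKM in the Sox4-MKO mice, with a log2 fold change of 0.20 ± 0.43 (SE) and an unadjusted p of 0.673 by limma. The deposited values do not show whether a shortened transcript is counted there, so the genotypes below are those of the labels. The paper reports much less SOX4 protein in BAT of younger Sox4-MKO mice. All 10 brown fat markers were detected in every library, and in the Sox4-MKO group 8 of them were lower, with an unadjusted p below 0.05 by limma. That count was 4 without Sox4f/f mouse 1, 4 without Sox4f/f mouse 2, and 6 under quantile normalization or scaling to general adipocyte genes. Summed FPKM of 10 skeletal muscle markers was 207.7 and 745.7 in controls and 14090 and 2898 in Sox4-MKO mice. Both Sox4-MKO libraries thus lay above both controls, and Sox4-MKO library 1 was by far the highest. Estimated depth was 12200000 to 16600000 fragments per library.

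Of the 9 adipokine genes, 3 were higher in the Sox4-MKO mice at an unadjusted p under 0.05 (Retn, Lep and Rarres2), none was lower, 4 were tested without passing that threshold (Adipoq, Nampt, Apln and Angptl8), and 2 lay below the limit of 1 FPKM on average in either genotype and were not tested (Lcn2 and Serpina12). Among all 12877 genes tested with limma, 7.95% were higher and 8.28% lower at the same threshold. The values of 4 tested adipokine genes did not overlap between the genotypes and all 4 were higher in the Sox4-MKO mice, against 21.7% of all tested genes in that direction and 29.6% in the other. The median log2 fold change of the 7 tested adipokine genes was 0.55 and that of all tested genes -0.05. No gene of the 12877 had an adjusted p under 0.05 (limma, Benjamini-Hochberg), and the smallest was 0.191. The main test called 1024 genes higher and 1066 lower. That split became 1322 to 745 when libraries were scaled to a common sum without mitochondrially encoded genes and Ucp1, and 1341 to 291 when they were scaled to 10 general adipocyte genes. The median of all genes then lay at 0.01 and 0.09, so fold changes close to 0 depend on the scaling.

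**Figure D1:**
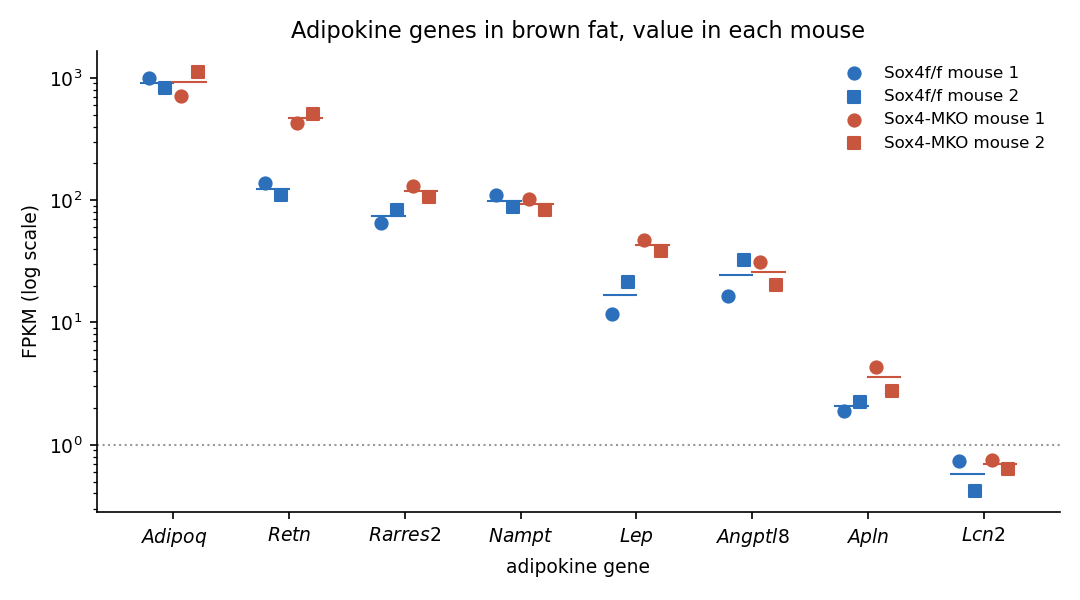
Expression of 8 adipokine genes in each of the 4 mice, in FPKM on a log axis, with genes in order of mean level; points are single mice, short lines are genotype means, and the dotted line marks 1 FPKM. Retn, Lep, Rarres2 and Apln show both Sox4-MKO mice above both Sox4f/f mice, Adipoq, Nampt, Angptl8 and Lcn2 show mixed points, and Serpina12 is left out because it was listed at 0 in both Sox4f/f mice.

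The order of the levels places these changes. Adipoq was the most abundant adipokine mRNA in every mouse, with a mean of 911.0 FPKM over the 4 libraries, and lay above Retn (295.8 FPKM) without overlap. Retn was second in every mouse, although its lower Sox4f/f value (110.6 FPKM) lay within the range of Rarres2. Rarres2 and Nampt had nearly the same mean (95.87 and 95.85 FPKM) and changed places: Nampt was the higher in both Sox4f/f mice and Rarres2 in both Sox4-MKO mice. Lep and Angptl8 (29.76 and 25.11 FPKM) changed places in the same way, with Angptl8 the higher in both Sox4f/f mice and Lep in both Sox4-MKO mice. Apln (2.80 FPKM), Lcn2 (0.635 FPKM) and Serpina12 (0.0139 FPKM) followed in that order in every mouse and did not overlap.

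Promoters are shown for Lep, Retn and Adipoq, because Retn and Lep were higher in the Sox4-MKO mice while Adipoq overlapped. Each is the 250 bases before the transcription start in RefSeq on build GRCm38.p6, read 5′ to 3′ on the gene's strand, which is the plus strand for all 3. RefSeq promoters were found for 8 of the 9 genes, all but Rarres2. Capitals mark the palindrome TTGCGCAA, a sequence that CCAAT/enhancer-binding proteins (C/EBPs) can bind.
Lep, chr6:29059971-29060220: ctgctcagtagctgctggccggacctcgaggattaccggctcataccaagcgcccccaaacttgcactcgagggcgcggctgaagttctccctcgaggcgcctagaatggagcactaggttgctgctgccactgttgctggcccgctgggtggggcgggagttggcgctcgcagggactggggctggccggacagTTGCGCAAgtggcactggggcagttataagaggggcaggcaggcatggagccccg
Retn, chr8:3655520-3655769: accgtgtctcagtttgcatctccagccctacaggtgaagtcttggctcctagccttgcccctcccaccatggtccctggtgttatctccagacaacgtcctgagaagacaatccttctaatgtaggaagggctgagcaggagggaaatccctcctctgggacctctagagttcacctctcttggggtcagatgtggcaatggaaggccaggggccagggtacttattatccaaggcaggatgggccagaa
Adipoq, chr16:23146286-23146535: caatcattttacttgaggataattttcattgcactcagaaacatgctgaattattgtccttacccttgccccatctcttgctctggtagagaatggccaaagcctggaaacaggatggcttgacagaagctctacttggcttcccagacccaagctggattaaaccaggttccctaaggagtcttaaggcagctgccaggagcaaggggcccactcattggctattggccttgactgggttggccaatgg

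The palindrome lay at positions -55 to -48 of the Lep promoter, with -1 the base before the start, and was found in 54 of 32851 promoters of the same length (0.164%). None of the other 7 adipokine promoters held it. Related C/EBP words were found only in Angptl8 among the 8: TTGCACAA at -100 to -93 (0.895% of promoters) and TTGCATCA at -130 to -123 (0.791%), both on the minus strand of the gene. The word ACAAAG, which SOX proteins can bind, lay in the promoters of Serpina12 (-206 to -201) and Apln (-215 to -210, minus strand) and in 16.5% of all promoters. A second SOX word, ACAATG, was in none of the 8 and in 10.7% of all. The nuclear receptor half-site AGGTCA was in Nampt (-151 to -146) and in 14.0% of all. Retn, Adipoq and Lcn2 held none of the 6 words on either strand. These are matches of letters in a short window and were not tested for binding.

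Leptin, resistin and adiponectin are well known for acting at a distance. Retn, on chromosome 8 (positions 3655770 to 3660110, plus strand, GRCm38), measured 137.2 and 110.6 FPKM in the Sox4f/f mice and 425.2 and 510.1 FPKM in the Sox4-MKO mice. Both Sox4-MKO values lay above both Sox4f/f values, the lower Sox4-MKO value was 3.10-fold the higher Sox4f/f value, and mice of the same genotype differed by 1.24-fold and 1.20-fold. The means were 123.9 ± 18.8 and 467.6 ± 60.0 FPKM (SD, n = 2 each), a ratio of 3.78, and the log2 fold change of FPKM + 1 was 1.91 ± 0.17 (SE, limma, unadjusted p = 0.000155, adjusted p = 0.191). Retn ranked 7 of 12877 genes by p. It stayed under an unadjusted p of 0.05 in 16 of 16 alternative analyses, with log2 fold changes of 1.76 to 2.08. The estimated number of fragments behind each value was 1538 to 9656.

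Lep, on chromosome 6 (29060220 to 29073877, plus strand), measured 11.79 and 21.5 FPKM in the Sox4f/f mice and 47.4 and 38.35 FPKM in the Sox4-MKO mice. The genotypes did not overlap, but the closest pair between them differed by 1.78-fold, while the pair of Sox4f/f mice differed by 1.82-fold. Means were 16.65 ± 6.87 and 42.87 ± 6.40 FPKM (SD, n = 2 each), a ratio of 2.58. The log2 fold change was 1.36 ± 0.31 (SE, limma, unadjusted p = 0.00828, adjusted p = 0.214). Muscle RNA was high in both Sox4-MKO mice, so leaving out either of them did not remove it. Its part in the Lep difference was not tested. Leaving out a mouse moved the log2 fold change between 0.96 and 1.77. Without Sox4-MKO mouse 1, the library with most muscle RNA, it was 1.21 with an unadjusted p of 0.0578 by limma, and without the shared estimate of the spread the p was 0.0882.

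Adipoq, on chromosome 16 (23146536 to 23158028, plus strand), measured 988.7 and 821.0 FPKM in the Sox4f/f mice and 711.4 and 1123 FPKM in the Sox4-MKO mice. The Sox4-MKO mice held both the lowest and the highest value, so the genotypes overlapped fully. Means were 904.8 ± 118.5 and 917.3 ± 291.1 FPKM (SD, n = 2 each), and the log2 fold change was -0.01 ± 0.26 (SE, limma, unadjusted p = 0.967). Its sign changed with the scaling (0.21 after quantile normalization) and with the mouse left out (-0.34 to 0.32). Adipoq was more abundant, by its mean over the 4 mice, than 99.6% of tested genes.

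**Figure D2:**
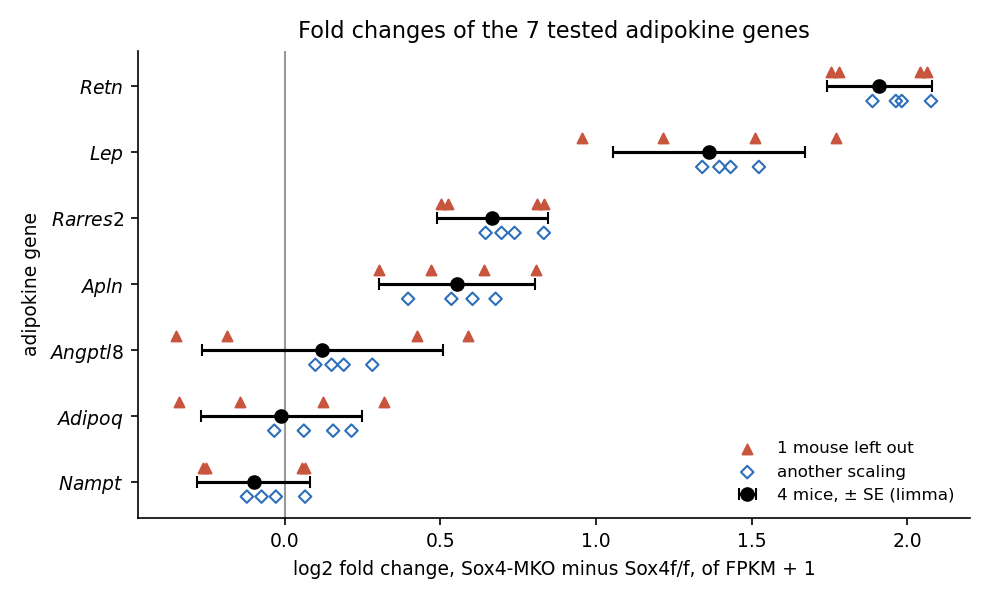
Log2 fold changes (Sox4-MKO minus Sox4f/f, of FPKM + 1) of the 7 tested adipokine genes; black points with bars are estimates from 4 mice ± SE by limma, triangles are estimates with 1 mouse left out and diamonds those under another scaling. Every estimate for Retn, Lep, Rarres2 and Apln lies above 0, whereas those of Angptl8, Adipoq and Nampt fall on both sides of 0.

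Since adiponectin comes from adipocytes, the other adipokines were also set against it within each library, which removes any scaling of the library. Retn measured 13.87 and 13.47 FPKM per 100 FPKM of Adipoq in the Sox4f/f mice and 59.76 and 45.41 in the Sox4-MKO mice. Lep measured 1.19 and 2.62 per 100 in the Sox4f/f mice and 6.66 and 3.41 in the Sox4-MKO mice. For both genes the genotypes stayed apart, with differences in the log2 ratio of 1.93 and 1.43. Both had an exact two-sided permutation p of 0.3333, the smallest that 2 mice against 2 allow. For Lep, however, the closest values of the genotypes (2.62 and 3.41) lay nearer each other than the 2 mice of either genotype. Rarres2 was at 6.62 and 10.04 per 100 in the Sox4f/f mice and 18.21 and 9.44 in the Sox4-MKO mice. Its genotypes overlapped on this scale (exact permutation p = 0.6667), as did those of Apln, at 0.190, 0.273, 0.610 and 0.246 per 100 in the same order of mice. Nampt and Angptl8 overlapped too.

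**Figure D3:**
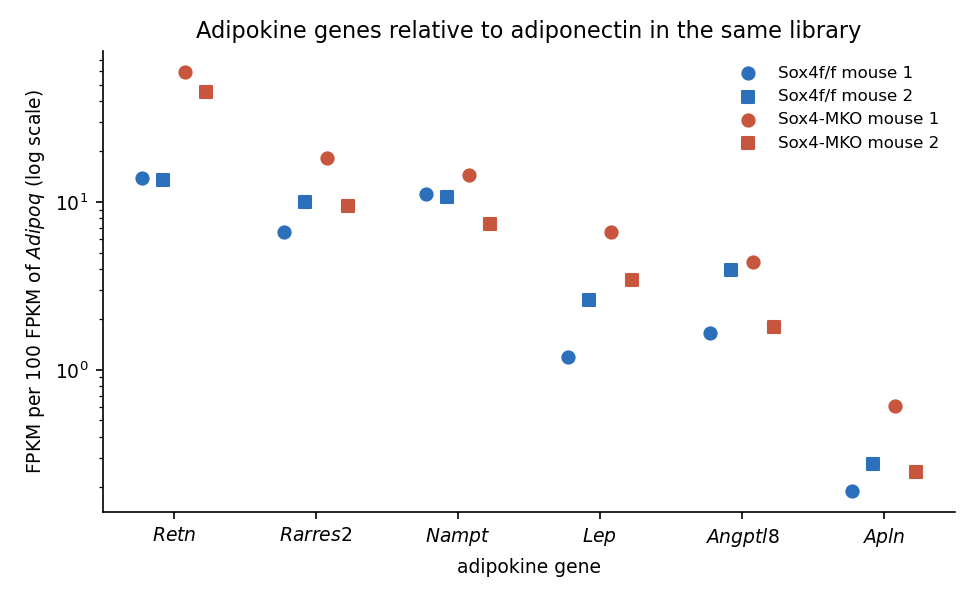
FPKM of 6 adipokine genes per 100 FPKM of Adipoq in the same library, on a log axis, with circles for mouse 1 and squares for mouse 2 of each genotype. Retn and Lep keep both Sox4-MKO mice above both Sox4f/f mice, while Sox4-MKO mouse 2 lies below at least 1 Sox4f/f mouse for Rarres2, Nampt, Angptl8 and Apln.

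The mix of adipokine mRNAs differed as well. Adipoq made up 74.2% and 70.9% of the summed FPKM of the 9 genes in the Sox4f/f mice and 49.0% and 59.6% in the Sox4-MKO mice. Retn made up 10.3% and 9.55%, then 29.3% and 27.1%. The sums themselves were 1333 and 1159 FPKM in the Sox4f/f mice and 1453 and 1884 FPKM in the Sox4-MKO mice. In Sox4-MKO mouse 2 the lower share of Adipoq went with a higher level of Retn and not with a lower level of Adipoq. In Sox4-MKO mouse 1 Retn was higher too, but Adipoq (711.4 FPKM) also lay below both Sox4f/f values (988.7 and 821.0 FPKM). Lep made up 0.885% and 1.86%, then 3.26% and 2.04%. Its share was higher in both Sox4-MKO mice, but the closest values (1.86% and 2.04%) lay nearer each other than the 2 mice of either genotype.

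**Figure D4:**
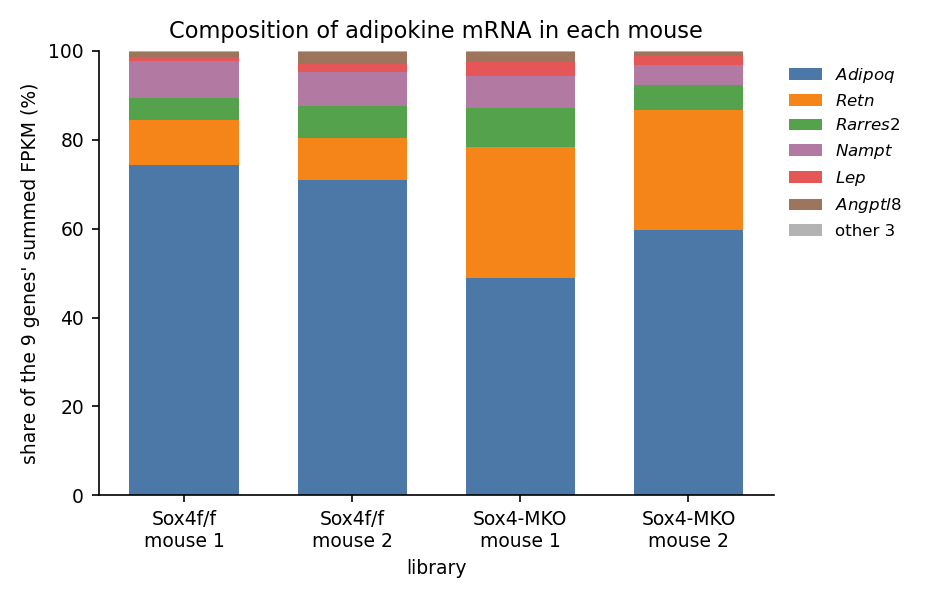
Share of each adipokine gene in the summed FPKM of all 9, in percent, 1 bar per mouse. The Retn share is 10.3% and 9.55% in the Sox4f/f mice and 29.3% and 27.1% in the Sox4-MKO mice, and the Adipoq share is lower in both Sox4-MKO mice.

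Chemerin, apelin and NAMPT are also known for acting near their source. Rarres2, on chromosome 6 (48569696 to 48572789, minus strand), measured 65.4 and 82.46 FPKM in the Sox4f/f mice and 129.6 and 106.0 FPKM in the Sox4-MKO mice. The genotypes did not overlap, and the means were 73.93 ± 12.1 and 117.8 ± 16.7 FPKM (SD, n = 2 each), a ratio of 1.59. The log2 fold change was 0.67 ± 0.18 (SE, limma, unadjusted p = 0.0155, adjusted p = 0.229). It was 0.50 (limma, unadjusted p = 0.0917) without Sox4f/f mouse 1 and 0.52 (unadjusted p = 0.0675) without Sox4-MKO mouse 1, so the call was lost without either of these mice. Rarres2 also shares 328 exon bases (39.4% of the exon bases of its coding transcripts) with Lrrc61 on the opposite strand, and whether fragments were counted by strand is not given in the sources used here. Lrrc61 measured 11.99, 11.08, 18.50 and 6.35 FPKM in the same order of mice, far below Rarres2.

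Apln, on chromosome X (48025146 to 48034853, minus strand), measured 1.88 and 2.24 FPKM in the Sox4f/f mice and 4.34 and 2.76 FPKM in the Sox4-MKO mice. The genotypes did not overlap, but the Sox4-MKO mice were 1.57-fold apart and the closest pair between genotypes 1.23-fold apart. The log2 fold change of 0.55 ± 0.25 (SE, limma) had an unadjusted p of 0.0830 and thus did not pass. It had a limma p of 0.0492 after scaling to the sum without mitochondrially encoded genes and Ucp1. The p was 0.0721 after scaling to a common median, 0.144 after quantile normalization and 0.0648 under scaling to general adipocyte genes. The log2 fold change was 0.81 without Sox4-MKO mouse 2 but 0.30 without Sox4-MKO mouse 1, which held the highest value. The estimated fragments behind these values numbered only 81 to 179.

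Nampt, on chromosome 12 (32819545 to 32853349, plus strand), measured 110.6 and 87.91 FPKM in the Sox4f/f mice and 102.4 and 82.51 FPKM in the Sox4-MKO mice. The values of the genotypes interleaved, and the log2 fold change was -0.10 ± 0.18 (SE, limma, unadjusted p = 0.607). Angptl8, on chromosome 9 (21835510 to 21837347, plus strand), encodes a protein that steers lipoprotein lipase between fat and muscle after a meal. It measured 16.43 and 32.39 FPKM in the Sox4f/f mice and 31.42 and 20.2 FPKM in the Sox4-MKO mice, a 1.97-fold spread within Sox4f/f alone. Its log2 fold change of 0.12 ± 0.39 (SE, limma, unadjusted p = 0.770) ran from -0.35 to 0.59 depending on the mouse left out. A difference of this size was not detectable with this spread. Angptl8 lies within Dock6 on the opposite strand and shares no exon of a coding transcript with it.

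The last 2 members were barely present. Lcn2, on chromosome 2 (32384633 to 32388252, minus strand), encodes lipocalin 2, which binds bacterial iron carriers and is made by neutrophils as well as inflamed fat. It measured 0.731 and 0.420 FPKM in the Sox4f/f mice and 0.751 and 0.638 FPKM in the Sox4-MKO mice, from an estimated 5 to 10 fragments per library. The genotypes overlapped, and the log2 fold change was 0.11 ± 0.17 (SE, limma without a filter, unadjusted p = 0.542). Serpina12, on chromosome 12 (104028769 to 104044443, minus strand), encodes vaspin, a serine protease inhibitor. It was listed at 0 in both Sox4f/f libraries and at 0.0168 and 0.0386 FPKM in the Sox4-MKO libraries. These are an estimated 1 and 2 fragments, below the 3 fragments (0.0489 to 0.0666 FPKM) that a count of 0 allows, so no fold is given.

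Genes around the adipokines were followed in 7 lists of receptors, partners, related enzymes, paralogues and regulators. The counts below stand beside 7.95% of all tested genes higher and 8.28% lower at an unadjusted limma p under 0.05. Of their 56 different tested genes, 10 were higher and 10 lower in the Sox4-MKO mice with an unadjusted limma p below 0.05, and 7 of these 20 passed in each of the 4 fits that left out a mouse and the 4 other scalings (Cmklr1, Retnla, C1qtnf1, C1qtnf6, Cebpd and Nmrk2, all higher, and Lmf1, lower). The other 13 lost the call in at least 1 fit with a mouse left out, 10 of them without Sox4f/f mouse 1, 10 without Sox4f/f mouse 2, 9 when Sox4-MKO mouse 1 was dropped and 5 when Sox4-MKO mouse 2 was. None of them had an adjusted p under 0.05, as for all genes.

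Among receptors and binding proteins, 2 of 10 tested genes were higher and none lower. Cmklr1, the signalling receptor for chemerin, measured 8.46 and 9.04 FPKM in the Sox4f/f mice and 22.24 and 28.15 FPKM in the Sox4-MKO mice. Both Sox4-MKO values were thus above both Sox4f/f values, like those of its ligand gene Rarres2, and the log2 fold change was 1.42 ± 0.17 (SE, limma, unadjusted p = 0.000547, adjusted p = 0.191). Tlr4, a receptor for bacterial lipopolysaccharide to which resistin has also been reported to bind, measured 3.09, 2.87, 4.83 and 4.72 FPKM in the same order. Its log2 fold change of 0.54 had an unadjusted p of 0.0260 by limma but did not pass in any of the 4 fits that left out a mouse.

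The other receptors did not pass with all 4 mice. The adiponectin receptors Adipor1 (75.27, 70.22, 70.30 and 61.66 FPKM) and Adipor2 (219.1, 203.7, 200.7 and 208.7 FPKM) had log2 fold changes of -0.14 and -0.05. T-cadherin (Cdh13), which holds adiponectin on vessel walls, was at 19.89, 14.38, 34.09 and 18.11 FPKM, with overlap between genotypes. The apelin receptor gene Aplnr was at 7.49, 6.44, 11.60 and 7.95 FPKM, with both Sox4-MKO values above both Sox4f/f values but an unadjusted p of 0.123 by limma. Without Sox4-MKO mouse 2 the log2 fold changes were 0.97 for Cdh13 and 0.67 for Aplnr. Without Sox4-MKO mouse 1, which held the highest value of both genes, they were only 0.09 and 0.17. Cap1, Hspa5 and Slc22a17, proposed receptors or binding proteins of resistin, vaspin and lipocalin 2, had log2 fold changes of -0.13, -0.04 and -0.19 and did not pass. Lepr, the leptin receptor, lay below the limit at 0.218, 0.293, 0.507 and 0.359 FPKM.

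Genes for processing, secretion and protein partners held 1 higher and 4 lower of 9 tested. Angptl4, an inhibitor of lipoprotein lipase and a relative of Angptl8, measured 221.2 and 224.2 FPKM in the Sox4f/f mice and 112.1 and 162.2 FPKM in the Sox4-MKO mice, a log2 fold change of -0.72 (limma, unadjusted p = 0.0189). Without Sox4f/f mouse 1 or 2 it kept about this size (-0.73 and -0.71) but did not pass. Lmf1, which matures the lipase (log2 fold change -0.62), Gpihbp1, which carries it to the capillary wall (-0.41), and Furin, a protease that cuts many secreted proteins (-0.42), were also lower. Gpihbp1 and Furin passed in 1 of 4 fits that left out a mouse, and the number of lower calls was 2 under scaling to general adipocyte genes. Lpl itself measured 1223, 848.0, 1213 and 1137 FPKM, and its genotypes overlapped (log2 fold change 0.21, limma unadjusted p = 0.375). The higher gene was the protease Mmp9, at 1.94, 2.09, 4.01 and 3.59 FPKM.

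Around NAMPT, 2 of 13 tested NAD genes were higher and 2 lower. Nmrk2, a nicotinamide riboside kinase best known from skeletal muscle, went from 0.194 and 0.265 FPKM to 2.67 and 4.69 FPKM (log2 fold change 1.90, limma unadjusted p = 0.00190). The muscle markers Mb (16.45, 38.04, 484.8 and 436.5 FPKM) and Myh2 (1.83, 5.66, 100.5 and 74.73 FPKM) were also high in both Sox4-MKO mice. Most other muscle markers were far higher in Sox4-MKO mouse 1 than in mouse 2, such as Acta1 (59.91, 225.8, 4512 and 898.1 FPKM) and Myh4 (15.05, 56.51, 1165 and 55.16 FPKM). Nmrk2 was higher in Sox4-MKO mouse 2 than in mouse 1. The part of muscle RNA in the Nmrk2 difference was not tested. Nnmt, which methylates nicotinamide and so withdraws it from recycling, measured 24.26, 17.82, 33.11 and 45.33 FPKM (log2 fold change 0.87, limma unadjusted p = 0.0155), and did not pass without Sox4f/f mouse 2 or without Sox4-MKO mouse 2 (0.65 in both fits). Sirt3, a mitochondrial NAD-dependent deacylase, and Nmrk1, the other riboside kinase, were lower, with log2 fold changes of -0.64 and -0.46, and neither passed under scaling to general adipocyte genes. Nmnat1 and Nmnat3, which complete the route from NAMPT to NAD, had log2 fold changes of -0.09 and -0.03, and Nmnat2 lay below the limit.

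**Figure D5:**
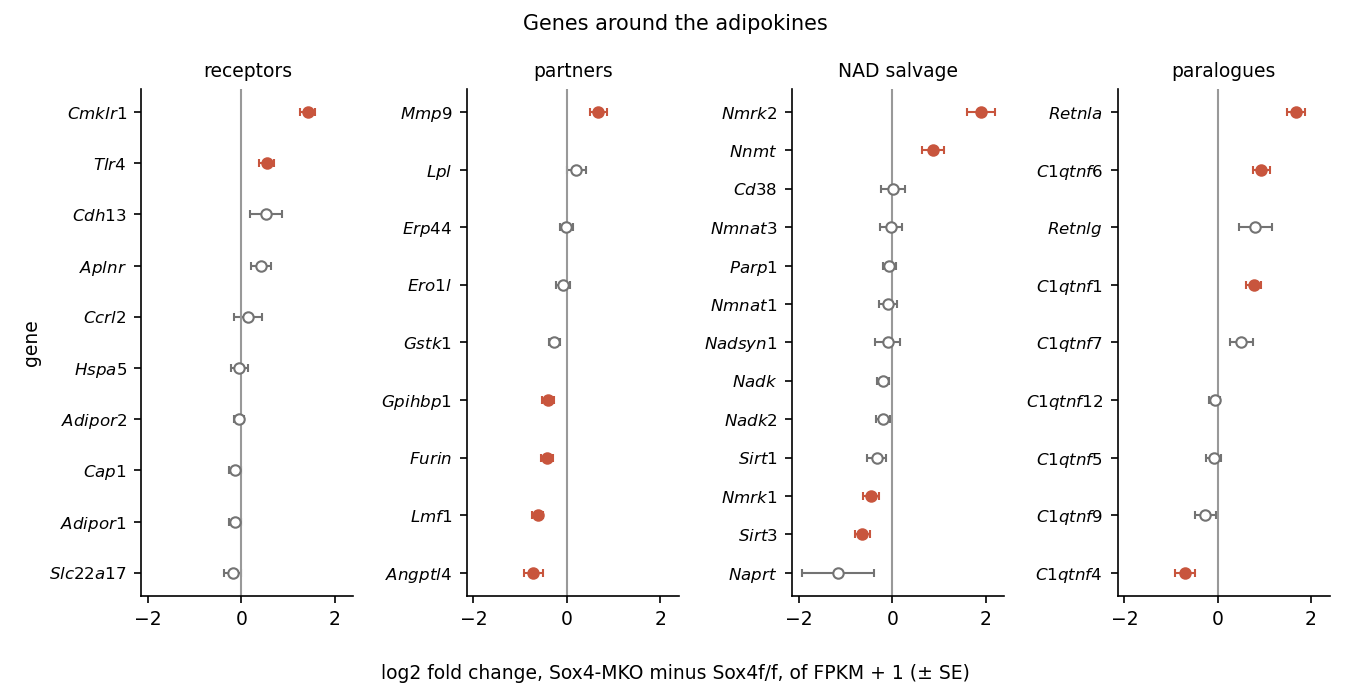
Log2 fold changes (Sox4-MKO minus Sox4f/f, of FPKM + 1, ± SE by limma) of tested genes around the adipokines, in panels for receptors, partners, NAD salvage and paralogues of adiponectin and resistin; filled points passed an unadjusted p of 0.05. Cmklr1 at 1.42, Nmrk2 at 1.90 and Retnla at 1.68 lie farthest to the right in their panels, and Angptl4 at -0.72 is the lowest of the partners.

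Paralogues were followed beside the adipokines. Of the resistin-like genes, Retnla, which alternatively activated macrophages and fat express, measured 67.71 and 66.14 FPKM in the Sox4f/f mice and 256.9 and 182.2 FPKM in the Sox4-MKO mice. Its genotypes did not overlap, and its log2 fold change was 1.68 ± 0.19 (SE, limma, unadjusted p = 0.000500, adjusted p = 0.191). Retnlg was listed at 0 and measured 0.739 FPKM in the Sox4f/f mice, then 1.37 and 1.26 FPKM, without passing (limma unadjusted p = 0.0766), and Retnlb was listed at 0 throughout. No stretch of 50 bases in the transcripts of Retn occurs in those of another annotated gene, so reads from its paralogues are not identical to it at that length. Of 7 tested relatives of adiponectin, C1qtnf6 (1.70, 1.58, 3.89 and 4.18 FPKM) and C1qtnf1 (5.48, 5.07, 10.38 and 9.09 FPKM) were higher, and C1qtnf4 (4.69, 3.69, 1.92 and 2.46 FPKM) was lower. Of 4 tested angiopoietin-like paralogues, only Angptl4 passed, and it was lower.

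Of 12 regulators of adipokine genes, 2 were higher and 3 lower. Cebpd, an early C/EBP factor of adipogenesis, measured 2.68 and 2.99 FPKM in the Sox4f/f mice and 7.72 and 8.78 FPKM in the Sox4-MKO mice (log2 fold change 1.27, limma unadjusted p = 0.000897). Srebf1, a driver of lipid synthesis, was higher by 0.47 on the log2 scale and passed in 1 of 4 fits with a mouse left out, in which Sox4f/f mouse 2 was missing (0.31 without Sox4f/f mouse 1). Cebpb and Cebpa went the other way. Cebpb measured 83.21, 123.4, 45.95 and 62.69 FPKM (log2 fold change -0.90, not passing without Sox4f/f mouse 2 or Sox4-MKO mouse 1), and Cebpa, the C/EBP of mature adipocytes, 363.3, 345.6, 266.2 and 276.9 FPKM (-0.38), a difference that passed under 1 of 4 other scalings. Ppargc1a, the coactivator of heat production genes, was lower (48.19, 22.38, 13.16 and 14.21 FPKM, log2 fold change -1.21), but it did not pass without Sox4-MKO mouse 1 or 2 and was -0.67 without Sox4f/f mouse 1. Pparg had a log2 fold change of -0.32 (limma unadjusted p = 0.132).

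The tested genes whose pattern was closest to that of Retn over the 4 libraries, by Euclidean distance between centred log2(FPKM + 1) values, were Mfap4 (distance 0.318), Serpina3n (0.344) and an immunoglobulin kappa variable segment (0.345). Mfap4 was low, at 0.209 and 0.051 FPKM in the Sox4f/f mice and 2.50 and 4.64 FPKM in the Sox4-MKO mice. At such levels the added 1 damps the differences, so its distance to Retn depends on that setting. Serpina3n, which encodes a secreted protease inhibitor, measured 6.28 and 3.78 FPKM in the Sox4f/f mice and 24.22 and 26.93 FPKM in the Sox4-MKO mice. The closest to Nampt were Gm9794 (0.0228), Rab34 (0.0290) and Prpf4 (0.0380), with mouse 1 above mouse 2 in both genotypes. With 4 libraries these are descriptions and carry no test.

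Markers of other cells moved with the genotypes, and their part in the adipokine differences was not tested. In whole tissue, fewer cells of a type and less RNA per cell cannot be told apart. Macrophage markers were higher in 8 of 10 cases and none was lower, with sums of 225.2 and 327.6 FPKM for Sox4f/f and of 472.0 and 455.6 FPKM for Sox4-MKO. Only 4 passed without Sox4f/f mouse 1, without Sox4-MKO mouse 1 or without Sox4-MKO mouse 2. Markers of adipocyte progenitors and fibroblasts were higher in 9 of 10 cases, with sums of 392.5, 421.4, 842.9 and 779.6 FPKM. Skeletal muscle markers were higher in 8 of 10 cases, but in 3 without Sox4f/f mouse 1, in 5 when Sox4-MKO mouse 1 was left out and in 10 when Sox4-MKO mouse 2 was. The summed values for endothelial markers were 355.1, 439.0, 249.1 and 316.4 FPKM, with 2 of 10 lower, and 1 of 10 when either Sox4f/f mouse was left out. Lymphocyte markers summed to 15.45, 14.51, 25.20 and 133.7 FPKM, of which the immunoglobulin heavy chain gene Ighm made up 7.16, 9.22, 20.22 and 122.8 FPKM. Ighm was the 1 gene higher of 5 tested, and it did not pass when either Sox4f/f mouse was left out. Of 3 tested neutrophil markers 1 was higher, but 2 when Sox4-MKO mouse 1 was left out and 0 when Sox4f/f mouse 1 or Sox4-MKO mouse 2 was, while the neutrophil markers Ly6g, Mpo, Ngp and Camp were listed at 0 in all 4 libraries. Of 8 mesothelial markers 1 could be tested and it did not pass, and Upk3b, Wt1 and Upk1b were at 0.

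General adipocyte markers summed to 13060 and 13320 FPKM for Sox4f/f and to 11550 and 14180 FPKM for Sox4-MKO. Fabp4, a fatty acid carrier, made up much of this (5801, 6334, 5416 and 7518 FPKM), and without it the sums were 7256, 6990, 6131 and 6667 FPKM, lower in both Sox4-MKO mice. Of the 10 genes 3 were lower, the lipases Pnpla2 (log2 fold change -0.44) and Lipe (-0.31) and the glycerol channel Aqp7 (-0.62), and none was higher. Without overlap 6 were lower, against 29.6% of all tested genes. Only Aqp7 passed without Sox4f/f mouse 1 or without Sox4f/f mouse 2, and 1 gene was higher under quantile normalization and 1 without Sox4-MKO mouse 1. Brown adipocyte markers summed to 8701, 8505, 4473 and 5095 FPKM. Without Sox4-MKO mouse 1, whose library had the most muscle RNA, the log2 fold change of Retn was 2.04 (limma, unadjusted p = 0.00111). Muscle RNA was also high in the remaining Sox4-MKO mouse, and its part in the Retn difference was not tested.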

How the data were processed

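BAT of 2 Sox4f/f and 2 Sox4-MKO mice was sequenced as paired ends, 1 library per mouse. The authors deposited 1 FPKM value per gene and library. The submitters' processing notes name Cufflinks 2.1.1, Cuffdiff and mm10, and the aligner, annotation and strand setting are not given in the sources used here. The labels name a column kit and a stranded library kit, and the methods TRIzol and TruSeq. Counts could not be used, so log2(FPKM + 1) was fitted with limma 3.58.1 in R 4.3.3 (genotype only, trended moderation, two-sided, Benjamini-Hochberg over 12877 genes with an averaged FPKM above 1 in a genotype). The code was tested on simulated data. Alternatives changed pseudocount, filter, scaling, moderation, replicate block and the mice used. FPKM depth was estimated from low values of 6741 genes with 1 transcript of at least 1500 nt and is approximate. Fragment numbers cover counting error only. Coordinates are those of GENCODE M21 on GRCm38.

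All 9 adipokine genes are named, and of the lists those with an unadjusted p under 0.05, the main receptor of each adipokine and a few other genes of the lists, plus the 3 genes closest to the member with the largest rise and to that with the largest fall. The members and lists were chosen with earlier results of these data known. The deviations of same-numbered mice did not correlate across genes (-0.01). With 2 mice per genotype, opposed effects can cancel in that value, so it cannot exclude a pairing.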

Additional observations from a re-analysis of the deposited data

How the results depend on the processing

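With 2 mice per genotype, no alternative gave an adipokine gene an adjusted p under 0.05, the lowest being 0.103 for Retn. The number of adipokine genes higher was 1 without moderation, on log2 or unlogged FPKM, and 1 to 4 with a mouse left out. Over all genes, higher calls were 553 (log2) and 515 (unlogged) without moderation and 433 to 1443 with a mouse left out, and lower calls 291 under scaling to general adipocyte genes and 380 to 1015 with a mouse left out. Signs turned for 3 genes that did not pass. Adipoq was 0.21 after quantile normalization, 0.061 with the sum without mitochondrially encoded genes and Ucp1, 0.15 under adipocyte scaling, and -0.34 to 0.32 with a mouse left out. Nampt was 0.065 under adipocyte scaling and -0.26 to 0.064 with a mouse left out, and Angptl8 was -0.35 to 0.59. The cause was not tested.

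With mouse numbers as a replicate block, 3 adipokine genes were higher, and all genes gave 970 higher and 938 lower, so the block changed no call of an adipokine gene. Whether same-numbered mice share more than a number is not known (correlation of deviations -0.01). Depth limits Serpina12, Lcn2 and Apln.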
